A study of Mus musculus with 12 samples.

Results

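Gene expression was compared between 3 libraries from stressed, psilocybin-treated mice and 3 libraries from unstressed mice, 6 of the 12 libraries used from the series. All 6 were labelled as monocytes from the meninges, the membranes around the brain, of male C57BL/6J mice. The psilocybin mice had been restrained for 18 days and the tissue was taken 24 hours after the drug; the unstressed controls have no restraint and no drug in their labels. Stress and drug therefore cannot be told apart in this comparison, and the labels state no dose, age or number of mice per library. The labels do not say that the replicates were separate animals, so the p-values measure the spread between these libraries, which may be technical.

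Each gene had to be found in both deposits, because the psilocybin files were counted on Ensembl genes and the unstressed files on RefSeq genes. Of 26615 genes joined by symbol, 11191 had a mean of at least 5 CPM in each group (counts scaled to 1000000 per library) and were tested. A further 768 genes reached 5 CPM in the psilocybin mean only, 784 in the unstressed mean only and 13872 in neither. The exons of a gene often differ between the annotations, and with them the bases over which reads were counted. Own exonic bases, those in exons of no other gene, were nearly the same in both annotations for 1786 of the tested genes (at least 0.9 of the pooled bases shared, and lengths within 1.1 times). The group, the annotation and the deposit are the same split of the libraries and cannot be told apart by any fit.

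Psilocybin is converted in the body to psilocin, which activates serotonin receptors. Monocytes are circulating cells that enter tissues and can become macrophages, and chronic restraint activates the glucocorticoid axis, which acts on monocytes and on the barrier tissues of the brain. The choroid plexus, which makes cerebrospinal fluid and secretes transthyretin, lies close to the meninges and is rich in mitochondria. Oxidative phosphorylation is the chain of respiratory complexes in mitochondria whose subunits come from both the nuclear and the mitochondrial genome.

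The promoters of the 3 heat shock genes that were past the threshold are shown because these genes were higher in psilocybin together, as described further on. Each window holds 300 bases around the RefSeq start (build GRCm38.p6), and the capitals mark matches to GAANNTTC, a pair of heat shock element units, searched on both strands. Hspb1 lies at chr5:135887669-135887968 on the plus strand, Hspd1 at chr1:55087883-55088182 on the minus strand, and Hspe1 at chr1:55087898-55088197 on the plus strand.
Hspb1: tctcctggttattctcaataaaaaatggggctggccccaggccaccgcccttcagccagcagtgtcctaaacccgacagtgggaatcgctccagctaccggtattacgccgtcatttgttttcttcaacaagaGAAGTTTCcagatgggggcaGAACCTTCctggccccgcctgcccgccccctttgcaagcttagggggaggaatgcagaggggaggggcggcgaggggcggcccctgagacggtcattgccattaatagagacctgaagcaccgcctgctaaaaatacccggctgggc
Hspd1: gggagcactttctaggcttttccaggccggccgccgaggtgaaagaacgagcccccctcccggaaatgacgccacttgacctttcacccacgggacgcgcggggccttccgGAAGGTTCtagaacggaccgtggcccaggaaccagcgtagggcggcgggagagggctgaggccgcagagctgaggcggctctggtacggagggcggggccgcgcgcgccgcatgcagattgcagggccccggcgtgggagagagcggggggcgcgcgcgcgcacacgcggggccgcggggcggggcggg
Hspe1: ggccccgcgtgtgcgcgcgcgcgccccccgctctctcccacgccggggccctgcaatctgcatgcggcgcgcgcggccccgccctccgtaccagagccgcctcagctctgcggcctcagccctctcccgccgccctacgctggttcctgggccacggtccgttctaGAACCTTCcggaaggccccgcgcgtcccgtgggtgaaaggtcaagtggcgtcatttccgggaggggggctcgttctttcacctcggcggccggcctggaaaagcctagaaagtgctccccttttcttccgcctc
The Hspd1 and Hspe1 windows share 285 bases read in opposite directions, and the match in both is the same stretch, bases 55088064 to 55088071 of chromosome 1. The letters were found in the windows of 8 of 14 tested heat shock genes with a window, and in 7.04% of the 8868 tested genes with one. A match describes the letters only. Of the other motifs searched, 1 was the core of NRF1, a factor of many respiratory chain genes. Of the 17 oxidative phosphorylation genes called higher, 10 had a window. The core was in 0 of these 10 and in 2.38% of tested genes with a window. The E-box CACGTG was in 0 of 2 clock genes called higher and in 11.9% of tested genes. This says only that these letters are not in those windows.

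The 6 libraries held 2601848 to 4504400 gene counts, of which 88.96% to 92.98% lay in genes joined by symbol. On log2(CPM + 1) over the tested genes, the psilocybin libraries correlated with each other at 0.868 to 0.946 and the unstressed libraries at 0.778 to 0.835. Unstressed replicate 2 stood apart from its group: its correlations with psilocybin replicates 2 and 3 were 0.838 and 0.863, above its 0.778 and 0.811 with the other unstressed libraries. Results are therefore also given without it.

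The labelled cell type was checked against marker genes. Among the genes tested, which hold none of the mitochondrial genome, Ttr, which encodes transthyretin, and Enpp2, which encodes the lysophospholipase autotaxin, had the highest mean CPM in each group, followed by Malat1, a nuclear noncoding RNA. Both Ttr and Enpp2 mark choroid plexus epithelium. The 25 choroid plexus markers summed to 134480, 76259 and 77765 CPM in psilocybin replicates 1, 2 and 3 and to 49387, 18783 and 47663 CPM in unstressed replicates 1, 2 and 3, so the groups did not overlap. Ttr alone made up 64250, 38200 and 33640 CPM of the psilocybin sums and 6329, 4481 and 5578 CPM of the unstressed sums. Enpp2, the other large part, overlapped between the groups. Of the 25 markers, 10 lay apart upward, as did 16.8% of all genes tested. The 12 classical monocyte markers summed to 401, 406 and 1269 CPM in psilocybin and to 784, 851 and 775 CPM in unstressed libraries, and these overlapped. Ly6c2, a defining surface marker of classical monocytes, was at 10.2, 6.26 and 22.9 CPM in psilocybin and at 5.32, 8.05 and 0.749 CPM in unstressed libraries, and did not reach the 5 CPM mean in the latter. In every library of both groups the choroid plexus sum was far above the classical monocyte sum. The markers thus do not bear out a sample of monocytes alone in either group. In bulk libraries, more cells of a type and more RNA per cell cannot be told apart, and the part of cell makeup in the differences below was not tested.

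**Figure D1:**
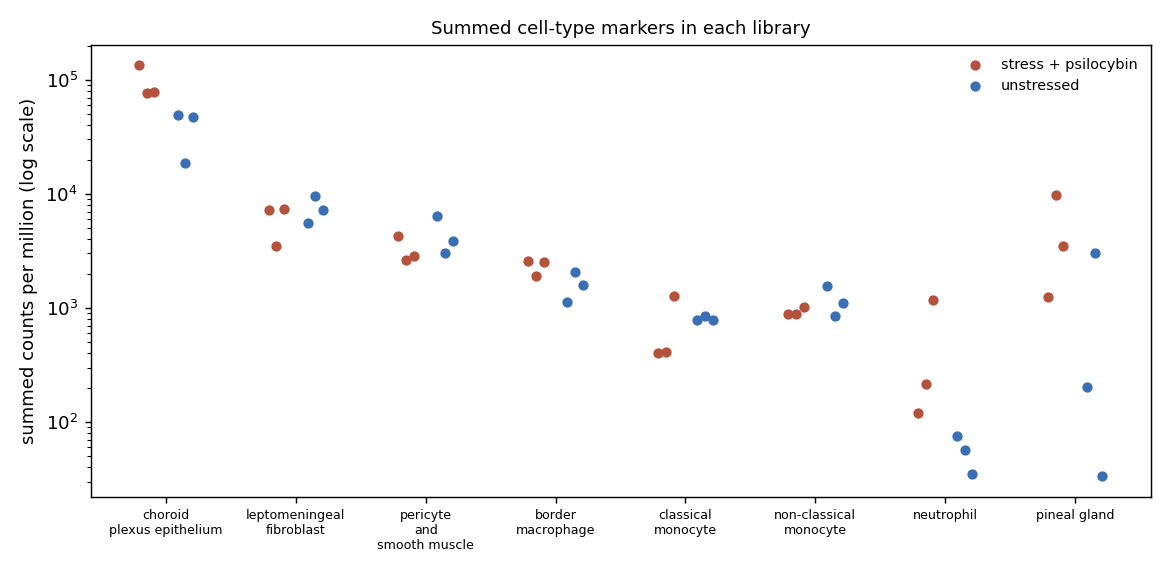
Summed CPM (log scale) of 8 cell-type marker lists in the 3 stress plus psilocybin and the 3 unstressed libraries; each point is 1 library, in the order of replicates 1 to 3. Choroid plexus markers reach 134480 CPM and lie above the unstressed libraries in all 3 psilocybin libraries, while the classical monocyte sums, 401 to 1269 CPM, overlap between the groups. Ttr alone holds 33640 to 64250 CPM of the psilocybin choroid plexus sums.

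Past the threshold of an adjusted p under 0.05 (edgeR quasi-likelihood test, Benjamini-Hochberg over 11191 genes) were 967 genes, which is 8.64% of those tested. Of these, 361 (3.23%) were higher and 606 (5.42%) lower in psilocybin. Among the 1786 genes with nearly the same exons, 162 (9.07%) passed, 44 higher (2.46%) and 118 lower (6.61%). The median absolute log2 change of the 967 genes was 1.62, and the median over all genes tested was -0.02. The count rose without unstressed replicate 2 and fell without any one of the other libraries. It was 45, 211 and 31 without psilocybin replicates 1, 2 and 3, and 160, 2141 and 58 without unstressed replicates 1, 2 and 3. With one estimate of spread over all 12 libraries of the series, 4 genes passed. In a simulation on these libraries, 100 genes were changed by 1 and 96 by 2 on the log2 scale, among 11533. The test recovered 3% and 70.8% of them. All were drawn from the more abundant genes. Fewer were changed than the 967 called here, which makes the adjusted p stricter, so these shares do not carry over to this comparison.

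Ttr had the largest rise past the threshold among the genes with nearly the same exons. It stood at 64250, 38200 and 33640 CPM in psilocybin replicates 1, 2 and 3 and at 6329, 4481 and 5578 CPM in unstressed replicates 1, 2 and 3. The lowest psilocybin library was thus far above the highest unstressed library. The log2 change was 3.11 (SE 0.40, adjusted p = 0.0104), or 8.62-fold. In the vehicle and MDMA libraries of the same deposit as psilocybin, Ttr ranged from 2309 to 49980 CPM.

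The other 13 genes described as higher with nearly the same exons had log2 changes from 1.87 to 2.51. Gstm1, a glutathione transferase that conjugates reactive compounds and belongs to a family of close copies, was at 202, 153 and 230.5 CPM in psilocybin and at 22.8, 56.9 and 26.2 CPM in unstressed libraries (log2 change 2.51, SE 0.40, adjusted p = 0.0176). B2m, the light chain of MHC class I, was at 1245, 475 and 1222 CPM against 136, 356.5 and 106 CPM (2.34, SE 0.57, adjusted p = 0.0416). In both genes unstressed replicate 2 was the nearest to psilocybin. That the groups lay apart was a condition for choosing the genes.

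Several of these genes encode parts of mitochondria. Ndufb3, Ndufa2 and Ndufb11 are subunits of respiratory complex I, with log2 changes of 2.26, 1.89 and 1.89. Mrps28 is a mitochondrial ribosomal protein (2.44), Tomm7 a part of the import channel of the outer membrane (2.32), and Higd2a an assembly factor of the respiratory chain (2.22). Dynlrb2, a light chain of the dynein motor found in cilia, rose by 2.20 and the claudin Cldn9 by 1.88. The list was completed by Prr32 (2.02), the tubulin Tuba4a (1.87) and Dcdc2a, which binds microtubules in cilia (1.87). These higher genes are mostly short, and their calls moved with the length pattern described further on. When a trend of each library on length was removed, Ttr (2.12), Gstm1 (1.87) and Dcdc2a (2.22) stayed past the threshold. The other 11, B2m (1.31) and the mitochondrial genes among them, then stood between 0.24 and 1.55 and did not pass (edgeR adjusted p from 0.0577 to 0.856).

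Lbh had the largest fall among genes with nearly the same exons. The gene, a transcription cofactor in limb and heart development, lies on chromosome 17 from 72918305 to 72941947. It was at 36.02, 24.2 and 27.7 CPM in psilocybin and at 412, 361 and 315 CPM in unstressed libraries, without overlap, which the choice of genes required. The log2 change was -3.58 (SE 0.28, adjusted p = 0.00232), which is 11.9-fold. Among the other stressed libraries, Lbh was at 22 to 46.3 CPM in vehicle replicates 1 and 2 and in all 3 MDMA libraries, and at 838 CPM in vehicle replicate 3.

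Atoh8, a helix-loop-helix transcription factor, was at 18.5, 16.7 and 18.99 CPM in psilocybin against 118.5, 92.3 and 121.5 CPM (log2 change -2.57, SE 0.26, adjusted p = 0.00432). Tnfrsf26, a receptor of the tumour necrosis factor family, was at 18.8, 11.7 and 15.03 CPM against 115.5, 99.0 and 150.2 CPM (-2.94, SE 0.31, adjusted p = 0.00538). The spread within each group was small beside these differences. Lifr, the receptor for leukaemia inhibitory factor, was at 345, 394 and 437.5 CPM against 1474, 1451 and 2182 CPM (-2.08, SE 0.27, adjusted p = 0.0110).

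Genes of the cell surface and matrix were also among the lower ones. Itgb5, an integrin that binds vitronectin, was at 47.5, 31.3 and 48.3 CPM in psilocybin against 128, 253 and 587 CPM (log2 change -2.88, SE 0.54, adjusted p = 0.0251). Tnc, which encodes the matrix glycoprotein tenascin C, was at 8.29, 5.01 and 10.02 CPM against 90.4, 52.6 and 23.0 CPM (-2.76, SE 0.56, adjusted p = 0.0278). For both, the unstressed libraries differed among themselves by several fold. That they lay above every psilocybin library was a condition for choosing the genes. Ccdc80, a secreted matrix protein, had a log2 change of -2.48 and the adhesion molecule Cadm4 one of -2.53. The remaining 7 were Tgtp2 (-2.46), an interferon-induced GTPase with a near copy in the genome that makes its counts uncertain, the kinases Nuak1 (-2.35) and Csnk1g3 (-2.29), Btbd2 (-2.29), the zinc finger gene Zbtb7c (-2.26), the lipid transfer protein gene Pitpna (-2.18) and the phosphatase gene Ppm1b (-2.06). With the length trend removed, all 15 lower genes stayed past the threshold, between -3.69 and -1.62.

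**Figure D2:**
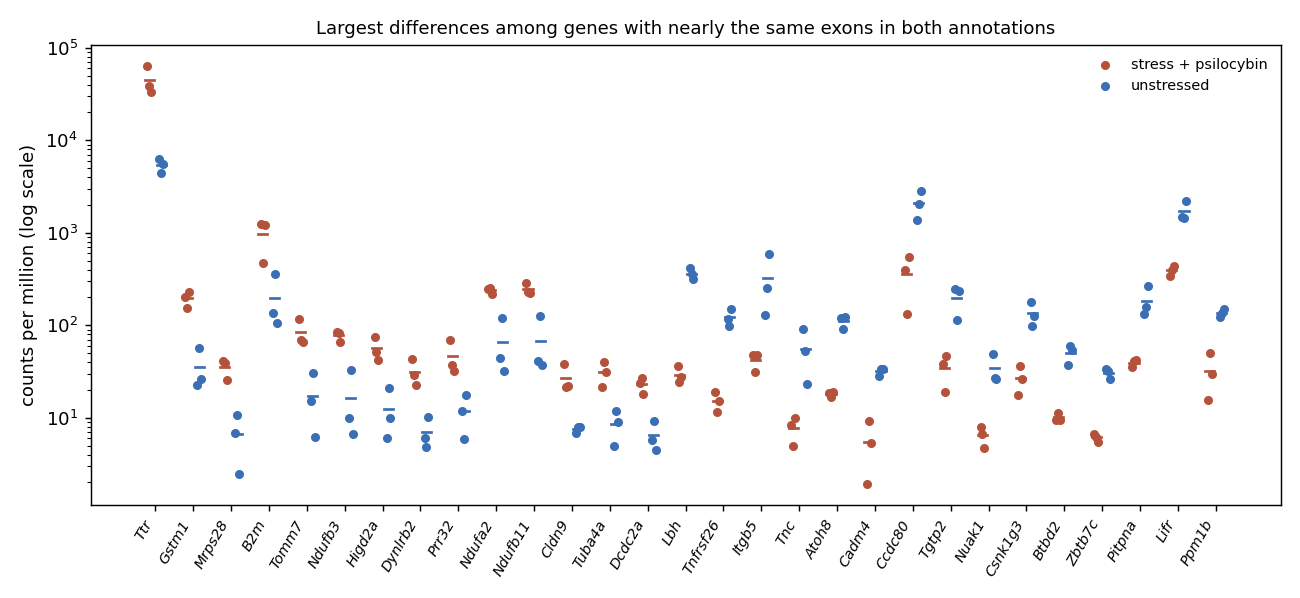
CPM (log scale) of 14 higher and 15 lower genes among those with the largest log2 changes that have nearly the same exons in both annotations, past adjusted p 0.05 and without overlap; points are the 3 libraries of each group and bars are group means. Across the tested genes of this kind 13% lay apart upward and 20.9% downward. The choice of genes fixes that the groups do not overlap; Ttr lies at 33640 CPM or above in psilocybin, and Lbh at 36.02 CPM or below.

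Across all the genes tested, the own exonic length in the 2 annotations moved with the direction of the calls. Of 1575 genes with more than 2 times the own exonic bases in Ensembl, 137 (8.70%) were higher in psilocybin and 28 (1.78%) lower. Of 268 genes with more than 2 times the bases in RefSeq, 0 were higher and 42 (15.7%) were lower. Over all genes tested, the log2 change correlated with the log ratio of lengths (Spearman 0.239 across genes, which are not independent replicates). Genes of the first kind made up 14.1% of the genes tested and 38% of the genes called higher.

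**Figure D3:**
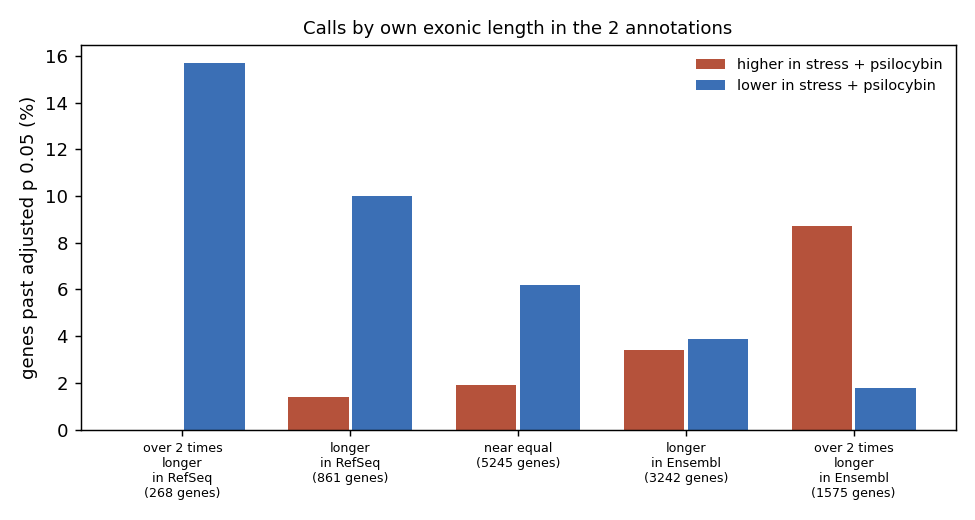
Percent of tested genes past adjusted p 0.05 that were higher or lower in stress plus psilocybin, by the ratio of own exonic bases in Ensembl (psilocybin files) and RefSeq (unstressed files); near equal means within 1.25 times, and no error bars are drawn because each bar is a count. Lower calls run from 15.7% where RefSeq is more than 2 times longer to 1.78% where Ensembl is.

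The largest changes past the threshold belonged to genes whose exons differ, and how much of each is the annotation cannot be told apart from the groups. Of 9405 tested genes with differing exons, 805 (8.56%) passed, 317 higher (3.37%) and 488 lower (5.19%); 17.5% and 19.8% did not overlap upward and downward. Nufip2, an RNA-binding partner of FMRP, was at 13.7, 18.4 and 15.3 CPM in psilocybin and at 630.5, 1011 and 665 CPM in unstressed libraries (log2 change -5.57, SE 0.33, adjusted p = 0.00120), with 5792 own exonic bases in Ensembl and 12358 in RefSeq. Gnas, the stimulatory G protein subunit of an imprinted locus with antisense transcripts, was at 13.4, 47.2 and 46.9 CPM against 1450, 1606 and 1713 CPM (-5.44, SE 0.51, adjusted p = 0.00374). Compared per own exonic base, Nufip2 changed by -4.48 and Gnas by -5.14, both past the threshold. In the 6 vehicle and MDMA libraries, counted on the same annotation as psilocybin, Nufip2 was at 9.08 to 38.8 CPM and Gnas at 4.84 to 78.4 CPM.

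The zinc transporter gene Slc39a7 (log2 change -4.79) had 500 own bases in Ensembl and 2393 in RefSeq, and per base its change was -2.53. B3gnt2, a glycosyltransferase gene, changed by -5.36 and Ccpg1, a receptor for autophagy of the endoplasmic reticulum, by -4.10. In the other direction stood the hydrolase gene Abhd2 (4.71), the HSP70 co-chaperone gene St13 (3.81), the zinc finger gene Zfp652 (3.71), the myristoyltransferase gene Nmt2 (3.62) and the kinase gene Uhmk1 (3.52), all with more own bases in Ensembl. Per base these fell to 2.84, 1.14, 1.499, 2.43 and 1.63, and St13 (adjusted p = 0.0636) and Zfp652 (adjusted p = 0.0831) no longer passed.

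Within the genes of nearly the same exons, a second pattern ran with transcript length. Of 183 genes under 1500 own bases, 23 (12.6%) were higher in psilocybin and 0 were lower. Of 530 genes over 5000 bases, 1 (0.189%) was higher and 70 (13.2%) were lower. Genes called higher had a median of 1458 bases, genes called lower 5570 and all genes tested 3648, and the log2 change correlated with length at -0.478 (Spearman across genes). With GC content it correlated at -0.03. Without Ttr, genes under 1500 bases took 11.1%, 9.29% and 10.7% of the counts of all joined genes with nearly the same exons in psilocybin replicates 1, 2 and 3, and 4.65%, 6.49% and 3.95% in unstressed replicates 1, 2 and 3. In the vehicle libraries, counted as psilocybin was, the same share was 14.2%, 8.01% and 3.61% in replicates 1, 2 and 3. When a trend of each library on length was removed, 653 genes passed, 89 of them with nearly the same exons; the part of the length trend in the differences was not tested further.

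**Figure D4:**
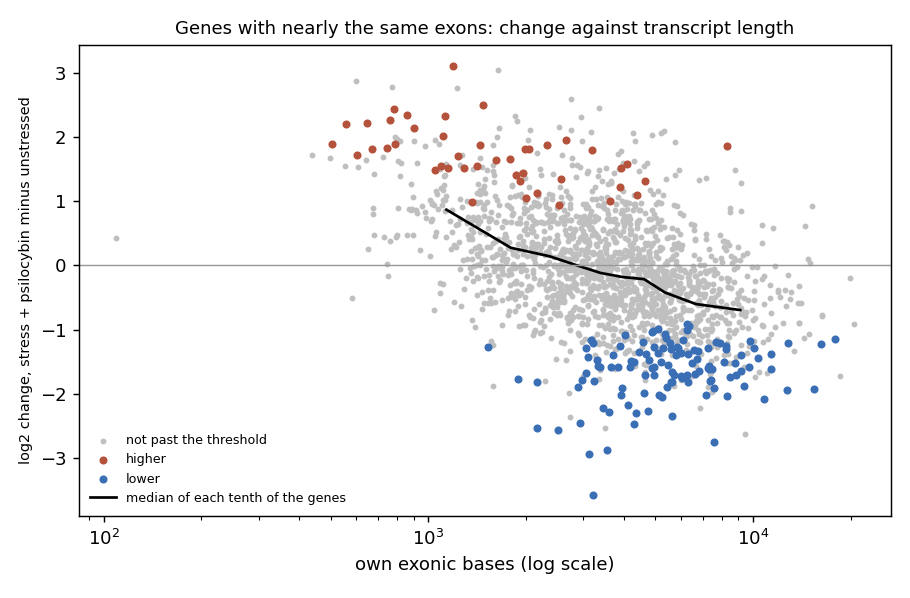
Log2 change (stress plus psilocybin minus unstressed) against own exonic bases (log scale) of the 1786 tested genes with nearly the same exons in both annotations; the black line joins the medians of equal-sized groups of genes by length. Genes called higher have a median of 1458 bases and genes called lower 5570.

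Subunits of oxidative phosphorylation from the nuclear genome had the most genes called higher of any list in this fit; DESeq2, limma voom and the fit without unstressed replicate 2 called more ribosomal proteins. Of 27 members tested, 17 (63.0%) were higher and 0 lower, beside 3.23% and 5.42% of all genes tested. The list's median log2 change was 1.19, against -0.02 over all genes. Cox6c, a subunit of cytochrome c oxidase, was at 320.0, 282 and 235.5 CPM in psilocybin and at 30.4, 92.6 and 32.4 CPM in unstressed libraries (2.47, SE 0.46, adjusted p = 0.0251). Atp5g3 and Atp5b, parts of ATP synthase, changed by 2.19 (SE 0.42, adjusted p = 0.0251) and 1.19 (SE 0.23, adjusted p = 0.0251).

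The 4 members with nearly the same exons were all among the 17: Ndufa2, Sdhd of complex II, Uqcrfs1 of complex III and Atp5c1 of ATP synthase, the last 3 named after their values were seen. Sdhd was at 265, 174 and 133 CPM against 68.4, 65.5 and 46.9 CPM (log2 change 1.71). Uqcrfs1 was at 256, 239 and 219 CPM against 129, 122 and 121 CPM (0.98). Neither gene overlapped between the groups. Of the 27 members 22 lay apart upward, beside 16.8% of all genes tested. Transcripts of this list are short: the tested members had a median of 2090 own bases in Ensembl.

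With the length trend removed, 8 of the 27 members were called higher and the median was 0.56. Per own base, 8 were higher and 3 lower (median 0.37), and Cox6c turned to -0.25 while Atp5g3 stood at 0.60 and Atp5b at 0.02, none past the threshold. Without unstressed replicate 2, 19 were higher, and without any one of the other 5 libraries 0 passed.

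Cytosolic ribosomal proteins, which build the translating ribosome, had 9 of 34 members (26.5%) higher and 0 lower, beside 3.23% and 5.42% of all genes, with a median log2 change of 1.44. All psilocybin libraries were above all unstressed libraries in 31 of the 34, where 16.8% of all genes tested had such a separation upward. Rpl23 was at 70.1, 60.5 and 72.5 CPM against 12.2, 29.5 and 15.5 CPM (1.86, SE 0.38, adjusted p = 0.0295). Rps9 changed by 2.17 and Rpl32 by 2.53. Unstressed replicate 2 was the highest of its group for each of these 3. DESeq2 called 28 higher, limma voom 26, and edgeR 15 with DESeq2 size factors and 17 with TMM factors from genes with nearly the same exons. Without that library 29 of 33 members passed, with the length trend removed 4 of 34, per own base 2 higher and 1 lower (Rpl23, Rps9 and Rpl32 not among them), and without any one of the other 5 libraries 0. These genes have many processed pseudogenes, which makes their counts uncertain.

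Genes of glycolysis and the hypoxia response had 4 of 18 members higher and 0 lower (median 0.55), beside 3.23% and 5.42% of all genes. Per own base 1 was higher and 1 lower (median 0.17). Eno1, the glycolytic enolase, was at 678, 493.5 and 499 CPM in psilocybin against 199, 187.5 and 170.2 CPM (log2 change 1.63, SE 0.25, adjusted p = 0.0150). Ldha, lactate dehydrogenase A, changed by 1.37 and the glucose transporter gene Slc2a1 by 1.49; Tpi1, named after its value was seen, changed by 1.63. Eno1 has 5379 own bases in Ensembl and 1981 in RefSeq, and per base its change was 0.19; that of Ldha was 0.50, and neither passed.

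Among heat shock proteins, 3 of 18 members were higher and 0 lower (median 0.25), beside 3.23% and 5.42% of all genes. Per own base 2 were higher and 5 lower (median -0.21), and with the length trend removed 1 was higher and 0 lower. Hspb1, a small chaperone, was at 77.1, 48.4 and 93.1 CPM in psilocybin and at 11.8, 17.2 and 11.2 CPM in unstressed libraries (2.49, SE 0.37, adjusted p = 0.0147). Hspd1 and Hspe1, which form the mitochondrial chaperonin and share the promoter region printed above, changed by 0.94 (SE 0.21, adjusted p = 0.0377) and 2.07 (SE 0.48, adjusted p = 0.0377). Hspd1, with nearly the same exons, was at 220, 239 and 218 CPM against 109.8, 131 and 124 CPM. Per own base Hspe1 stood at 1.105 and did not pass; with the length trend removed Hspe1 (1.21) and Hspd1 (0.67) did not. The unfolded protein response list had 1 of 17 members past the threshold, Dnajb9 (1.24; 0.80 per own base, not past it).

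Choroid plexus markers had 6 of 25 members (24.0%) higher and 0 lower, beside 3.23% and 5.42% of all genes, with a median log2 change of 0.94. After Ttr, Sostdc1, a secreted antagonist of BMP and Wnt signals with nearly the same exons, was at 1235, 622.5 and 679 CPM in psilocybin against 319, 212 and 304 CPM (1.66, SE 0.35, adjusted p = 0.0305). Calml4, a calmodulin-like protein, changed by 1.108 but by -0.58 per own base. Otx2, Igfbp2 and Kcne2 completed the 6, with 1.18, 1.45 and 1.77. The other abundant markers did not pass: Enpp2 was at 58030, 28700 and 36110 CPM against 35330, 10880 and 33770 CPM (0.68, adjusted p = 0.414), and Htr2c, a serotonin receptor of the choroid plexus, was at 378, 259 and 199 CPM against 218, 73.0 and 223 CPM (0.75, adjusted p = 0.302; -0.22 per own base). Without unstressed replicate 2, 6 members passed and the median was 0.56. DESeq2 called 10 higher; per own base 5 were higher and 1 lower. With the length trend removed 2 passed (Sostdc1 stood at 1.09 and did not), and without any one of the other 5 libraries 0 or 1.

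Of 17 genes for fluid secretion, the main task of the choroid plexus, 2 (11.8%) were higher and 1 (5.88%) lower, beside 3.23% and 5.42% of all genes. Car2, a carbonic anhydrase, was at 1023, 835 and 835 CPM in psilocybin against 287.5, 260.0 and 250.1 CPM (log2 change 1.80, SE 0.23, adjusted p = 0.0109), with little spread in either group. Fxyd1, a regulator of the sodium pump, changed by 1.997, and the potassium channel gene Kcna1 by -1.75 (-0.85 per own base, not past the threshold). Ependymal and ciliated cell markers had 2 of 8 higher, Cfap126 (2.27) and Dynlrb2, and 0 lower, beside 3.23% and 5.42% of all genes. With the length trend removed Dynlrb2 stood at 0.24 and no longer passed.

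Collagens, the main structural proteins of the matrix, were the list with the most genes called lower. Of 19 members, 8 (42.1%) were lower and 0 higher, beside 5.42% and 3.23% of all genes, with a median log2 change of -1.23. Col4a1, a basement membrane chain, was at 50.7, 57.2 and 44.6 CPM in psilocybin and at 168, 106.5 and 137 CPM in unstressed libraries (-1.39, SE 0.26, adjusted p = 0.0245). Col5a2, a fibrillar chain, was at 77.1, 50.1 and 80.7 CPM against 185, 201 and 207 CPM (-1.46, SE 0.27, adjusted p = 0.0237), and Col16a1 changed by -1.80. For 15 of the 19, every psilocybin library was below every unstressed library, as for 20% of all genes tested. Collagen transcripts are long (median 7442 own bases in Ensembl): with the length trend removed 4 were lower and the median was -0.86. DESeq2 called 13 lower and 1 higher. Per own base 13 were lower, without unstressed replicate 2 8, and without any one of the other 5 libraries 0 to 2.

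Markers of leptomeningeal fibroblasts, the main source of meningeal collagen, were called in both directions. Of 15 members 1 was higher and 3 lower, beside 3.23% and 5.42% of all genes. Igf2, a growth factor made by these cells and by the choroid plexus, was at 18.2, 17.9 and 21.1 CPM in psilocybin and at 251, 300.2 and 267.5 CPM in unstressed libraries (log2 change -3.79, SE 0.25, adjusted p = 0.00133). Its own bases number 2029 in Ensembl and 4890 in RefSeq, and per base its change was -2.52 with adjusted p = 0.0029. In the vehicle and MDMA libraries Igf2 was at 1.21 to 27.7 CPM. Foxc1, a transcription factor of the meninges, changed by -2.08 and Col3a1, named after its value was seen, by -1.23. Ptgds, prostaglandin D synthase, was the 1 higher member of 15, at 981, 426 and 524 CPM against 111, 200.1 and 149 CPM (2.12, SE 0.40, adjusted p = 0.0251). Per own base Ptgds stood at 1.26 and with the length trend removed at 1.30, not past the threshold in either; the list then had 0 higher, with 7 lower per own base and 2 with the trend removed.

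The insulin-like growth factor axis had 4 of 15 members lower and 1 higher (median -0.73), beside 5.42% and 3.23% of all genes. H19, the noncoding neighbour of Igf2, was at 109, 58.0 and 109 CPM in psilocybin against 386, 354 and 593 CPM (-2.22, SE 0.35, adjusted p = 0.0167). Igf1r, the receptor, was at 129, 192 and 125 CPM against 609, 334 and 701 CPM (-1.84, SE 0.33, adjusted p = 0.0237). Irs1, the receptor's adaptor (-2.04), and the binding protein gene Igfbp2 (1.45) were named after their values were seen. Per own base 6 were lower and 0 higher. Without any one library other than unstressed replicate 2, 1 to 3 members were lower and 0 higher.

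Pericyte and smooth muscle markers had 3 of 9 members lower and 1 higher, beside 5.42% and 3.23% of all genes. Without unstressed replicate 2, 5 were lower and 1 higher, and without any one of the other libraries 0 were lower and 0 higher. Notch3, a receptor of mural cells with nearly the same exons, was at 55.5, 66.0 and 39.6 CPM against 303.5, 138 and 182 CPM (log2 change -1.91, SE 0.35, adjusted p = 0.0243). The proteoglycan gene Cspg4 changed by -1.93 and Pdgfrb, named after its value was seen, by -1.20, while Vtn, vitronectin, rose by 1.82. Among 12 endothelial markers Cdh5, the junction protein VE-cadherin, was the 1 gene past the threshold (-1.49), beside 5.42% of all genes called lower. Per own base 7 endothelial markers were lower, and their median went from -0.37 to -1.11. Integrins had 4 of 17 lower and 1 higher, beside 5.42% and 3.23% of all genes. The lower ones were Itgb5, Itgb4 (-1.83), Itgav (-1.51) and Itga6 (-1.37), the last 2 named after their values were seen. The higher one, Itgb8 (3.27), has 11060 own bases in Ensembl and 3096 in RefSeq. Per base Itgb8 changed by 1.43, not past the threshold. Of 14 tight junction genes 2, Cdh5 and the scaffold gene Tjp1 (-1.45), were lower and 0 higher, beside 5.42% and 3.23% of all genes. With the length trend removed Tjp1 stood at -1.06 and did not pass.

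**Figure D5:**
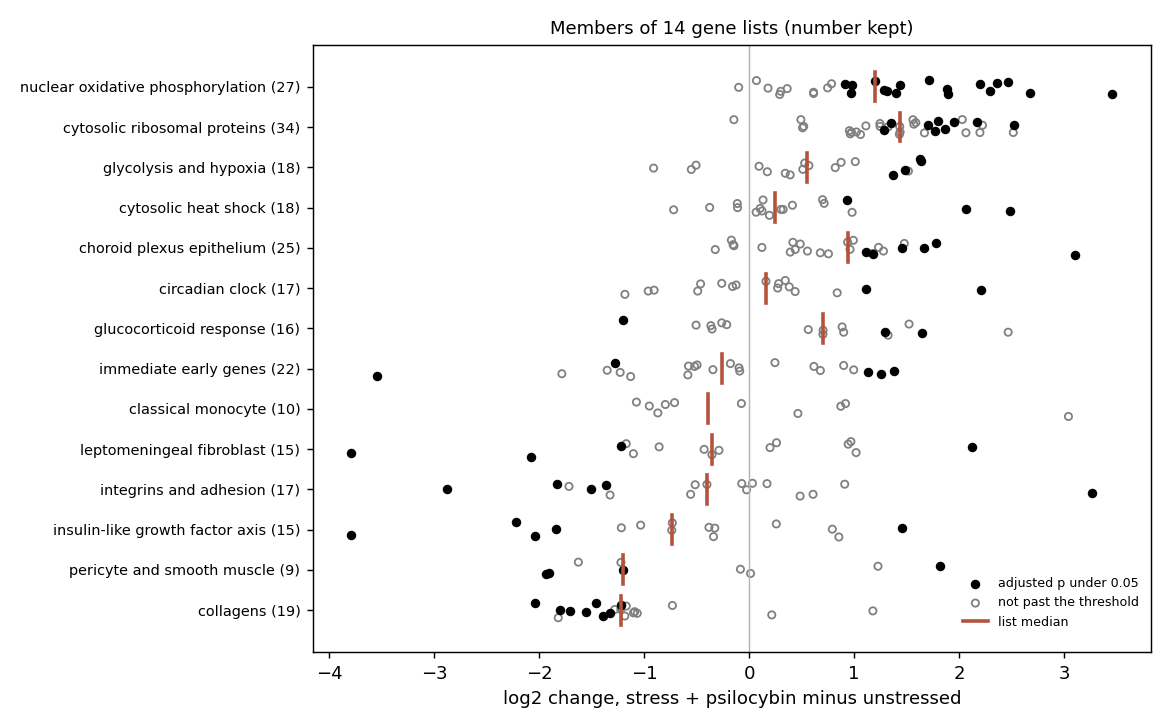
Log2 changes (stress plus psilocybin minus unstressed) of the tested members of 14 gene lists, with the number of members; filled points passed adjusted p 0.05, open points did not, and the red bar is the list's median. Oxidative phosphorylation has 17 filled points on the higher side and collagens 8 on the lower side.

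Calls among glucocorticoid-related genes went both ways, with 2 of 16 higher and 1 lower, beside 3.23% and 5.42% of all genes. The list leaned upward, with 10 of 16 log2 changes positive and a median of 0.70, or 0.14 per own base. Of the 16, 6 lay apart upward and 2 downward, beside 16.8% and 20% of all genes tested. DESeq2 called 6 higher and 1 lower. Without any one library other than unstressed replicate 2, 0 or 1 were higher and 0 lower. Nr3c1, the glucocorticoid receptor, with nearly the same exons, was at 184, 130.3 and 234 CPM in psilocybin and at 442, 378 and 484 CPM in unstressed libraries (log2 change -1.20, SE 0.28, adjusted p = 0.0401). Nfkbia, the inhibitor of NF-kappaB, was at 383, 244 and 461 CPM against 112, 163 and 84.6 CPM (1.65, SE 0.35, adjusted p = 0.0323). Sgk1, a kinase induced by corticosteroids, was at 936, 774 and 820.3 CPM against 282, 276 and 507 CPM (1.29, SE 0.31, adjusted p = 0.0403). The receptor's standard targets Fkbp5 and Tsc22d3 did not pass: Fkbp5 was at 40.5, 53.4 and 86.0 CPM against 47.9, 37.8 and 39.9 CPM, and Tsc22d3 at 753, 390.0 and 1044 CPM against 818, 1061 and 1011 CPM, both overlapping. With the length trend removed, Nr3c1 (-0.82) and Nfkbia (1.07) did not pass.

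Immediate early genes, which respond to stimuli and to tissue handling within minutes, had 3 of 22 higher and 2 lower, beside 3.23% and 5.42% of all genes. Ier2, with the same 1522 own bases in both annotations, was at 376, 283 and 383 CPM in psilocybin against 1047, 694 and 878 CPM (log2 change -1.28, SE 0.27, adjusted p = 0.0299). Jund, a subunit of the AP-1 factor, changed by -3.55 with 791 own bases in Ensembl and 2878 in RefSeq, and by -1.69 per base. Zfp36, which destabilises cytokine transcripts, changed by 1.26, and by 0.33 per base, not past the threshold. Per base 3 members were higher and 6 lower. Fos and Atf3, named after their values were seen, changed by 1.38 and 1.14. With the length trend removed no member was called higher and 3 were lower. The monocyte gene Nr4a1, of the same list, was at 524, 485 and 682 CPM against 884, 604 and 488 CPM and did not pass (adjusted p = 0.721).

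The clock genes Dbp and Nr1d1, both transcribed in daily rhythm, were the 2 of 17 clock members past the threshold, beside 3.23% of all genes called higher. Dbp was at 74.6, 68.1 and 103 CPM in psilocybin and at 27.7, 18.0 and 9.73 CPM in unstressed libraries (log2 change 2.20, SE 0.41, adjusted p = 0.0245). Nr1d1 was at 119, 114 and 142 CPM against 70.3, 48.8 and 60.1 CPM (1.1105, SE 0.25, adjusted p = 0.0347). The groups did not overlap in either gene. These were the 2 of 17 clock members that lay apart upward, beside 16.8% of all genes tested. With the length trend removed Nr1d1 stood at 0.87 and did not pass. The labels do not state the hour of tissue collection.

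Lists of immune cells held few calls. None of the 10 tested classical monocyte markers, 5 non-classical markers, 10 border macrophage markers, 7 microglia markers, 7 T and NK cell markers and 4 dendritic cell markers passed in edgeR; at an unadjusted p under 0.05, 2 of the 43 were higher and 6 lower, beside 12.8% and 15.8% of all genes tested, and DESeq2 called 1 higher and 4 lower. Ccr2, the receptor that draws monocytes into tissue, was at 27.4, 20.04 and 79.1 CPM against 88.9, 57.7 and 68.9 CPM (log2 change -0.71, adjusted p = 0.382). Cx3cr1, the fractalkine receptor, was at 5.10, 3.76 and 8.70 CPM against 0, 17.7 and 8.98 CPM, and Mrc1, the mannose receptor of border macrophages, at 11.8, 5.43 and 30.3 CPM against 0, 26.3 and 86.1 CPM. H2-Ab1, a chain of MHC class II, was at 123, 60.1 and 258 CPM against 140.5, 217 and 321 CPM. All 4 overlapped between the groups.

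Other single genes passed in lists with few calls. Over all genes tested, 3.23% were called higher and 5.42% lower. The early B cell factor gene Ebf1, also active outside the B lineage, was the 1 of 5 B lineage members (log2 change -1.48; -1.11 with the length trend removed, not past the threshold). The vesicular monoamine transporter gene Slc18a2 was the 1 of 7 serotonin and monoamine members (-1.62, SE 0.33, adjusted p = 0.0278). Clu, which encodes clusterin, was the 1 of 14 complement members (1.20) and Ctsl, cathepsin L, the 1 of 17 lysosomal members (1.1008). Per own base Clu stood at 0.49 and Ctsl at 0.68, neither past the threshold. Among zinc genes Slc30a4 changed by -1.07 beside Slc39a7. With the length trend removed Slc30a4 stood at -0.84 and did not pass. Endosomal sorting genes had 2 of 17 lower, Vps37b (-1.65) and Chmp4b (-1.24). Vps37b stood at -1.0001 per own base and Chmp4b at -1.01 without unstressed replicate 2, neither past the threshold. Ubap1, which was followed by choice, did not pass (-0.42, and 0.36 per own base). Lifr was the 1 of 13 among growth factor receptors. In lists of mast, neutrophil, pineal, neural and osteoblast markers, MHC class II, cell division and cholesterol synthesis, 0 of 65 passed in edgeR; at an unadjusted p under 0.05, 8 were higher and 2 lower, beside 12.8% and 15.8% of all genes, and DESeq2 called 5 higher and 2 lower. Nfkbia was the 1 of 12 inflammatory cytokine members.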

How the data were processed

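RNA sequencing libraries labelled as meningeal monocytes were compared, 3 stressed and psilocybin-treated against 3 unstressed, grouped by their titles. The values the authors deposited are whole-number counts of reads per gene. Per the submitters' processing notes, the build was mm10 and the tools included featureCounts 2.0.1, STAR 2.7.5c and fastp 0.23.2. Per the file headers, the unstressed counts were made on exons of a RefSeq annotation without a strand option; neither labels nor headers name the annotation or counting command of the stressed files, which carry Ensembl identifiers. Of a series table, 3 columns matched none of the samples and were left aside.

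Identifiers were given symbols from GENCODE vM21 (55141 of 55401) and joined one to one with 35976 RefSeq genes. CPM are counts scaled to 1000000 joined counts per library, without TMM. Counts of genes with a mean of at least 5 CPM in each group were scaled by TMM and tested with edgeR 4.0.16 quasi-likelihood tests (R 4.3.3) on the 6 libraries without a block; standard errors derive from the F statistic. The test was tried on simulated data first. Gene positions come from GENCODE vM21, and promoter windows from RefSeq (GRCm38.p6).

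Genes named were the 15 higher and 15 lower with the largest changes and nearly the same exons, 5 and 5 whose exons differ (all past the threshold, not overlapping, without predicted genes), up to 3 per list with the smallest p, the 3 most abundant per group and 14 followed by choice. Results of 2 of these genes are not reported here. Members and the 43 lists were chosen with earlier results of these data known. Alternatives were other scalings, filters, tools (DESeq2 1.42.0, limma voom 3.58.1), genes, a replicate block and leaving out each library; offsets for length and GC trends were chosen after seeing the data.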

Additional observations from a re-analysis of the deposited data

How the results depend on the processing

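Against 967 genes (361 higher, 606 lower), and 162 (44 higher, 118 lower) with nearly the same exons, counts moved by over 1.5 times in several settings. DESeq2 called 2015 (915 higher, 1100 lower) and 321 (117 higher, 204 lower); limma voom called 558 higher, and no filter 614 higher. Per own exonic base 2382 were called, 2010 of them lower, and the median of all genes moved from -0.02 to -0.36. Genes with nearly the same exons fitted alone gave 50 (15 higher, 35 lower). All 12 libraries in one fit gave 4 (1 higher, 3 lower; St13, Nufip2 and Gnas among them) and 0 with nearly the same exons, 0 higher and 0 lower; 545 genes had an unadjusted p under 0.05. Removing the length trend gave 235 higher, and 89 (16 higher, 73 lower) with nearly the same exons.

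Leaving out one library gave 31 to 2141 genes (11 to 1100 higher, 20 to 1041 lower), and 4 to 339 with nearly the same exons (0 to 141 higher, 3 to 198 lower). Of the 90 named genes past the threshold, 14 to 31 stayed past it without any one library other than unstressed replicate 2, and 88 of 89 tested without that one. Per own exonic base 70 of the 90 stayed past it, with the length trend removed 64, and with all 12 libraries in the fit 3. With DESeq2 size factors 40.4% of calls were higher, with TMM factors from genes with nearly the same exons 47%, with voom 47.7% and per own base 15.6%, against 37.3%.

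Same-numbered libraries deviated together by 0.113, 0.348 and 0.00675. Unstressed replicates 1 and 2 each correlated best with the psilocybin library of the same number. Unstressed replicate 3 correlated best with psilocybin replicate 1 (0.3). Because the match did not hold for all 3, the numbers were not taken to pair the libraries. The replicate block gave 962 genes (429 higher, 533 lower), 737 of them shared with the fit without it, and 162 with nearly the same exons.

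All 90 kept their direction in every setting that tested them, except Calml4 (-0.58) and Cox6c (-0.25) per own base. The 90 were chosen for passing in the main fit on the same libraries. That choice leaves little room for a change of direction. Among genes not past the threshold, Fkbp5 (-0.72), Htr2c (-0.22), Ubap1 (0.36) and Nr4a1 (0.35) turned per own base, Mrc1 (0.15) and Cx3cr1 (0.49) with voom, and Cx3cr1 with the replicate block (0.17). Leaving out one library gave Mrc1 changes of -2.06 to 0.30, positive without unstressed replicate 3, and Nr4a1 changes of -0.36 to 0.0776, positive without unstressed replicate 1. The causes were not tested beyond what each setting is built to change. Depth of 2601848 to 4504400 counts limits genes near 5 CPM.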

Other observations

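Neutrophil genes lay mostly outside the tested set because they were near absent in unstressed libraries. S100a8, a granule protein of neutrophils and monocytes, was at 27.1, 40.5 and 289 CPM in psilocybin replicates 1, 2 and 3 and at 1.90, 2.15 and 1.75 CPM in unstressed replicates 1, 2 and 3. Its partner S100a9 was at 14.98, 16.7 and 98.6 CPM against 0.380, 0.805 and 1.248 CPM. The 12 neutrophil markers summed to 119, 213 and 1173 CPM against 76.0, 57.1 and 34.9 CPM, highest in psilocybin replicate 3, which also had the highest sum of classical monocyte markers. Isg15, an interferon-induced modifier, was at 12.8, 12.5 and 24.0 CPM against 0.380, 0.537 and 0 CPM. Ifit3, of the same response, was at 49.4, 26.7 and 95.2 CPM against 63.8, 79.7 and 73.1 CPM, which overlapped. Both genes were named after their values were seen. Of the 17 tested members of the interferon-stimulated list, 4 had positive log2 changes, and the median was -0.33. The whole list of 22 summed to 858, 510 and 1054 CPM in psilocybin libraries. In unstressed libraries it summed to 1354, 1001 and 1226 CPM, which overlapped.

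Pineal gland markers differed several fold among the libraries of each group. Their sums were 1258, 9735 and 3520 CPM in psilocybin and 201, 3022 and 33.4 CPM in unstressed libraries. All 9 tested members had positive log2 changes (median 2.08) and 0 passed in edgeR or DESeq2, with 1 (Sag) at an unadjusted p under 0.05. Without unstressed replicate 2, 5 of 7 tested members passed. That library had by far the highest unstressed sum, so these calls cannot be taken apart from its removal.

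Transcripts of the mitochondrial genome, joined by position since their symbols differ, were not called higher with the nuclear subunits. The 13 genes held 3.59%, 3.89% and 3.22% of joined counts in psilocybin and 8.12%, 3.75% and 8.46% in unstressed libraries, with unstressed replicate 2 among the psilocybin values. In the vehicle libraries, replicates 1, 2 and 3, the share was 2.81%, 3.16% and 9.90%. Of the 7 that could be tested, 0 passed in edgeR; at an unadjusted p under 0.05, 4 were lower and 1 higher, beside 15.8% and 12.8% of all genes tested. The gene mt-Co1, a subunit of cytochrome c oxidase, had a log2 change of -1.09 (SE 0.40, adjusted p = 0.118).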
